A study of Mus musculus with 70 samples.

Results

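The genes described here are the nuclear genes that encode subunits of the mitochondrial oxidative phosphorylation machinery. They were taken by symbol: Nduf genes of the a, b, c, s and v series, the 4 Sdh genes, and symbols that begin with Uqcr, Cox4 to Cox8 or Atp5. Of 55011 gene symbols in the count table, 94 matched, 10 of these were pseudogene symbols that were left out, and 3 did not reach 10 counts in 2 libraries. The remaining 81 genes are 36 of complex I, 4 of complex II, 8 of complex III, 16 of complex IV and 17 of complex V. Complex I (NADH dehydrogenase) and complex II (succinate dehydrogenase, also an enzyme of the citrate cycle) pass electrons to ubiquinone, complex III passes them to cytochrome c, complex IV (cytochrome c oxidase) passes them to oxygen, and complex V (ATP synthase) uses the proton gradient to make ATP. Most subunits are encoded in the nucleus and a few in mitochondrial DNA, so both genomes contribute to complexes I, III, IV and V, while complex II is wholly nuclear. Muscle fibres are rich in mitochondria and use their own isoforms of several complex IV subunits, of which Cox6a2, Cox7a1 and Cox8b are in the set. Ndufa4 was counted with complex I by its symbol, although its protein is now placed in complex IV.

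Polyadenylated RNA was measured in 70 libraries from mouse hindlimb muscle, in 28 groups and 6 experiments. MmSCs, the mesenchymal stromal cells of muscle, came from uninjured C57BL/6J mice injected into the peritoneum with PBS (n = 2) or with 4 cytokines at once: Oncostatin M (Osm), TNFa, Il-17A and Il-1b. For this mix 2 libraries came from 2 h, 1 from 4 h and 2 from 8 h. Other such mice received 1 of the cytokines alone, or Osm with one of the others, and were sampled at 2 h (n = 2 each). The PBS libraries carry no time label. CD31+ cells, CD45+ cells, MmSCs and satellite cells (MuSCs, the stem cells of muscle fibres) were sorted from C57BL/6J mice at rest and 1 day after cardiotoxin, a venom toxin that destroys muscle fibres (n = 3 each). The Il6RD reporter mouse marks Il6-expressing cells by surface Thy1.1, and 3 libraries each of positive and negative MmSCs were made 12 h after cardiotoxin. DMDmdx mice, which lack dystrophin in all cells and whose muscle degenerates and regenerates, gave MmSCs at 3 ages, with 3 libraries at 2.5 weeks, 3 at 7 weeks and 2 at 12.5 weeks (12 weeks in the sample titles). Il1b-KO (n = 3) and Il1b-WT (n = 2) littermates gave MmSCs 1 day after cardiotoxin. Whole tibialis anterior muscle was taken 7 days after cardiotoxin from C57BL/6J mice given an antibody against Cxcl5 (aCxcl5) or control IgG (n = 3 each). Sorted libraries were made from 1000 cells each and whole muscle libraries from 2 ng of RNA.

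Library totals ran from 2252373 to 8408842 counts. In the sorted populations the defining markers followed the labels: the summed level of endothelial markers was 11800 to 12700 CPM (counts scaled to a common library total) in resting CD31+ cells against 1.79 to 161 CPM in the other resting populations, and that of leukocyte markers was 9400 to 10300 CPM in resting CD45+ cells against 0.994 to 11.5 CPM. MuSC markers summed to 9740 to 11200 CPM in resting MuSCs and 90.8 to 361 CPM elsewhere at rest. Resting MuSCs also held pericyte and smooth muscle markers, with a sum of 1470 to 2590 CPM against 594 to 869 CPM in resting CD31+ cells, and 551 to 1090 CPM in MuSCs after injury. A few libraries stood apart for the genes described here. In the aCxcl5 group, replicate 2 gave 2.79% of its counts to the 81 genes, against 3.69% to 4.29% in the other 5 whole muscle libraries. In the Il6RD mice, the number 3 libraries gave 0.740% (Thy1.1+) and 0.722% (Thy1.1-), against 0.966% to 1.16% in the other 4. The labels do not say which libraries came from separate animals, so the tests rest on the spread among libraries, which may be technical. In such pooled samples, fewer cells of a type and less RNA per cell cannot be told apart.

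Levels between genes were compared as CPM per kilobase of the median coding transcript (GENCODE M21), which was found for 79 of the 81. This median includes partial annotation entries: it was 533 bases for the complex III core subunit gene Uqcrc1, whose exons together span 4135 bases, and 2675 bases for Atp5g1 against 718 for Atp5g3. Ranks that rest on those lengths are therefore not given. By these lengths Cox4i1, the common form of complex IV subunit 4, was at 622 ± 14.8 CPM per kb in resting MmSCs (SD, n = 3) and 1477 ± 59.0 in resting MuSCs. Atp5b, the catalytic beta subunit of ATP synthase, was at 398 ± 22.7 in resting MmSCs. The lowest values in resting MmSCs belonged to alternative complex IV isoforms: Cox7a1 was at 5.56 ± 1.39, Cox8b at 4.96 ± 3.22, the testis-type Cox6b2 at 2.90 ± 0.661, Cox4i2 at 1.02 ± 0.678 and Cox6a2 at 0.412 ± 0.131 CPM per kb. These 5 were also the members nearest the count threshold, with 10 or more counts in 18 libraries for Cox7a1, 14 for Cox4i2, 11 for Cox8b, 11 for Cox6b2 and 9 for Cox6a2. Just under the threshold lay Cox6c2, Cox8c and Cox7b2, with 76, 10 and 5 counts over all libraries.

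The share of all counts that went to the 81 genes differed by sample type, as the plot of this share by group shows. It was 3.80% to 4.29% in IgG whole muscle, 1.79% to 1.93% in resting MuSCs, 1.13% to 1.25% in resting CD31+ cells, 1.16% to 1.18% in resting CD45+ cells and 0.924% to 1.00% in resting MmSCs. One day after cardiotoxin it was 1.57% to 1.73% in MmSCs, 2.29% to 2.44% in MuSCs, 1.47% to 1.64% in CD31+ cells and 1.26% to 1.37% in CD45+ cells. The ranges before and after injury did not overlap in any of the 4 populations.

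**Figure D1:**
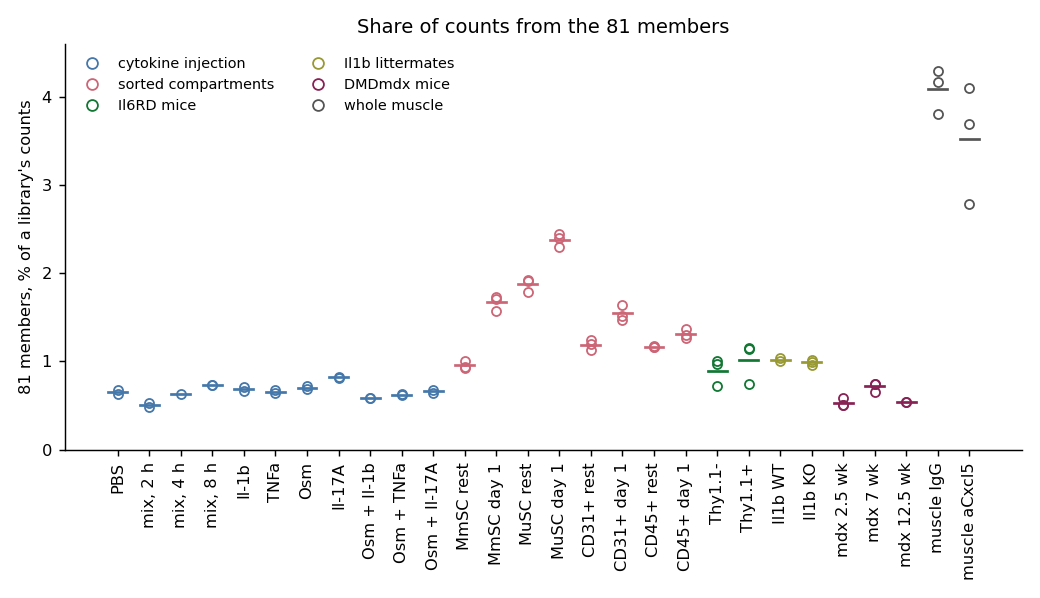
Share of each library's counts (%) that fell on the 81 nuclear oxidative phosphorylation genes, by group. Circles are libraries, bars are group means and colours are experiments; whole muscle lies above all sorted cells, and each injured population lies above the same population at rest.

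Promoter sequences show what lies upstream of the members on which the results turn. RefSeq (GRCm38.p6) gave promoter windows for 67 of the 81 genes, from 250 bases before to 50 after the start site, and the stretches below were limited to bases outside annotated exons. Cox5a and Atp5g1 are shown because they had some of the largest changes after injury, Cox7a2l because it moved against the rest, Uqcr11 and Cox6a1 because they carry letters that match regulatory motifs, and Cox8b as a muscle isoform for contrast. Capitals mark motif matches, and all sequences run 5′ to 3′ on the gene's strand.
Cox5a (chr9:57521112-57521231, plus strand): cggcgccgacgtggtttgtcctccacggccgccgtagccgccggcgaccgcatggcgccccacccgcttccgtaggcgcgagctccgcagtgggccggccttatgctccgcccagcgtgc
Atp5g1 (chr11:96075671-96075790, minus strand): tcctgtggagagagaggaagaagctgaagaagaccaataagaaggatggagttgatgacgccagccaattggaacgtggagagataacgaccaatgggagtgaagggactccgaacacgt
Cox7a2l (chr17:83514334-83514453, minus strand): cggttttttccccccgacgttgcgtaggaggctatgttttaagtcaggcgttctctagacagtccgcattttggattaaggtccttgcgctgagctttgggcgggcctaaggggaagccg
Uqcr11 (chr10:80406831-80406950, minus strand): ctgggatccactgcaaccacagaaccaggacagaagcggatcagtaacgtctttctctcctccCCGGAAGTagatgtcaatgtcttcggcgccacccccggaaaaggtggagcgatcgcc
Cox6a1 (chr5:115348982-115349129, minus strand): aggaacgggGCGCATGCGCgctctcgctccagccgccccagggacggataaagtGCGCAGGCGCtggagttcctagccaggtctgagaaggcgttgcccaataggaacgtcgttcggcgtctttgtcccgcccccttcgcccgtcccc
Cox8b (chr7:140900447-140900566, minus strand): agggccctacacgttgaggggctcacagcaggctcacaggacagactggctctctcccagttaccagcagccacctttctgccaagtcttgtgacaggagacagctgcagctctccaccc

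NRF1, GABPA and YY1 are transcription factors known to act at promoters of respiratory chain genes. On both strands of the windows, 4 motifs were searched: GCGCA, any base, then GCGC for NRF1, CCGGAAGT for GABPA, AAGATGGC for YY1 and TATAAA for the TATA box. The NRF1 letters were found in 17 of 67 members (25.4%) against 5.19% of 27025 genes in the table. The YY1 letters were found in 10 (14.9%, against 3.19%) and the GABPA letters in 5 (7.46%, against 4.31%). The TATA letters were found in 7 (10.4%, against 15.7%). Any of the first 3 was present in 30 of 67 (44.8%, against 11.7%). In the promoters printed above, Cox6a1 holds NRF1 matches 162 and 117 bases before the start site and Uqcr11 a GABPA match 66 bases before it. Matches describe the letters in these windows only, and no binding was measured.

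The first question was how the genes change in each cell population 1 day after cardiotoxin. Far more of them rose than fell in every population. Of 81 tested, 53 rose and 7 fell in MmSCs, 56 rose and 3 fell in MuSCs, 39 rose and 1 fell in CD31+ cells, and 44 rose and 2 fell in CD45+ cells (edgeR quasi-likelihood test, adjusted p under 0.05 over all 16374 genes). Over all genes tested, 18.2% rose and 23.6% fell in MmSCs, 21.4% and 17.4% in MuSCs, 14.2% and 9.35% in CD31+ cells, and 15.9% and 18.7% (34.6% in either direction) in CD45+ cells. The median log2 change of the 81 was 0.49, 0.52, 0.36 and 0.34 in that order, against -0.22, -0.04, -0.04 and -0.12 over all genes. With no scaling factors the all-gene median in MmSCs moved from -0.22 to 0, and 67 members rose and 3 fell. In CD45+ cells 23 rose and 5 fell with no scaling factors.

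Complex V had the highest share of rising genes in MuSCs, CD31+ cells and CD45+ cells, and in MmSCs all 4 genes of complex II rose. In MmSCs, 7 of 8 complex III genes and 13 of 17 complex V genes rose and none fell (medians 0.78 and 0.69). Complex I had 21 rising and 4 falling of 36 (median 0.45), complex II 4 rising of 4 (0.41) and complex IV 8 rising and 3 falling of 16 (0.40). In MuSCs the numbers were 7 of 8 for complex III, 15 of 17 for complex V, 23 rising and 1 falling of 36 for complex I, 3 of 4 for complex II, and 8 rising and 2 falling of 16 for complex IV. In CD31+ cells complex V rose in 12 of 17 (median 0.52), complex I in 15 of 36 and complex III in 4 of 8. In CD45+ cells the numbers were 12 of 17, 17 of 36 and 5 of 8.

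Each of the 4 injury comparisons has its own resting libraries, but all come from the same fit. The labels do not say whether the populations were sorted from the same animals. Agreement between them is therefore described and not taken as independent replication. Of the 81, 24 rose in all 4 populations, and they made up 10 of 17 complex V genes, 6 of 16 in complex IV, 3 of 8 in complex III, 1 of 4 in complex II and 4 of 36 in complex I. Among them were the ATP synthase genes Atp5a1, Atp5b, Atp5d, Atp5o, Atp5pb, Atp5k, Atp5md, Atp5mpl, Atp5g1 and Atp5g3, the complex IV genes Cox5a, Cox5b, Cox6b1, Cox7a2, Cox7b and Cox8a, and Uqcrb, Uqcrc1 and Uqcrq of complex III. The others were Sdhb and the complex I genes Ndufa12, Ndufb6, Ndufb7 and Ndufv2. A further 21 rose in 3 populations, 11 in 2 and 11 in 1, and 14 rose in none. The 48 genes that rose in both MmSCs and MuSCs were 90.6% of the MmSC list and 85.7% of the MuSC list. For CD31+ and CD45+ cells the shared number was 28, which was 71.8% and 63.6% of the lists. Of all 81, 65.4% rose in MmSCs, 69.1% in MuSCs, 48.1% in CD31+ cells and 54.3% in CD45+ cells. Lists this long share many genes by their length alone. How many of all genes rose in several or in all 4 populations was not counted. There were 7 genes called in no injury comparison: Atp5l, Cox4i1, Cox6a2, Ndufb10, Ndufb11, Ndufb4 and Uqcrh.

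Cox5a encodes a nuclear subunit of cytochrome c oxidase and had the largest called rise in MmSCs and in MuSCs. In MmSCs its TMM-scaled level (CPM after library totals were adjusted by TMM factors) was 52.4, 48.4 and 57.6 in the resting libraries and 169, 152 and 176 after injury (log2 change 1.65 ± 0.12 SE, adjusted p = 2.99e-10). In MuSCs it was 84.8, 77.2 and 65.7 at rest and 249, 228 and 240 after injury (log2 change 1.65 ± 0.12, adjusted p = 2.34e-10). Every injured library of both populations lay above every resting one. CD31+ cells started higher, at 101, 99.6 and 105 scaled CPM, and reached 175, 169 and 154 (log2 change 0.70 ± 0.11, adjusted p = 6.03e-05). CD45+ cells went from 108, 103 and 103 to 163, 196 and 194 (log2 change 0.82 ± 0.11, adjusted p = 7.96e-06). The injury change of Cox5a was smaller in CD31+ cells than in MmSCs by 0.95 ± 0.16 on the log2 scale (interaction, adjusted p = 0.000347) and smaller in CD45+ cells by 0.83 ± 0.16 (adjusted p = 0.000435). After injury the levels in MmSCs, CD31+ cells and CD45+ cells overlapped.

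Atp5g1 is one of 3 genes (Atp5g1, Atp5g2 and Atp5g3) that encode the same c subunit of the ATP synthase rotor with different import sequences. Its scaled CPM in MmSCs was 71.2, 60.8 and 67.3 at rest and 165, 165 and 171 after injury (log2 change 1.33 ± 0.11, adjusted p = 1.74e-09). In CD31+ cells it was 48.9, 47.4 and 44.6 at rest and 121, 115 and 112 after injury (log2 change 1.30 ± 0.11, adjusted p = 1.03e-08). No injured library overlapped a resting one. In MuSCs the log2 change was 1.23 ± 0.11 (adjusted p = 4.88e-09) and in CD45+ cells 0.85 ± 0.11 (adjusted p = 2.26e-06). Atp5g2 rose in MmSCs (log2 change 1.04 ± 0.19, adjusted p = 0.000114) and CD31+ cells (1.06 ± 0.19, adjusted p = 0.000259). In CD45+ cells it was at 17.5 ± 0.569 scaled CPM after injury and 20.1 ± 1.16 at rest, and its change differed from that in MmSCs by -1.24 ± 0.27 (interaction, adjusted p = 0.00132).

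Further members of complexes V, I and III rose by 1.01 to 1.22 on the log2 scale in MmSCs. Atp5b, the catalytic subunit, went from 951, 895 and 924 to 1998, 1714 and 1874 scaled CPM in MmSCs (log2 change 1.01 ± 0.10, adjusted p = 4.55e-08). Ndufa12, an accessory subunit of complex I, went from 44.7, 41.4 and 41.4 to 103, 90.6 and 103 (log2 change 1.22 ± 0.11, adjusted p = 1.69e-08). Uqcrq, a small subunit of complex III, went from 107, 88.7 and 103 to 227, 209 and 239 (log2 change 1.18 ± 0.15, adjusted p = 9.12e-07). For each of these genes all 3 injured MmSC libraries lay above all 3 resting ones. The changes of Ndufa12 in MuSCs, CD31+ cells and CD45+ cells were 1.1, 1.12 and 0.85, and those of the complex I gene Ndufb6 were 1.07, 1.15 and 1.04, all called. Cox4i1, whose protein is a core structural subunit of complex IV, was not called in any population, with log2 changes of -0.03 in MmSCs, -0.04 in MuSCs, 0.14 in CD31+ cells and 0.24 in CD45+ cells. With no scaling factors its MmSC change was 0.24.

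The 4 genes of complex II moved to different degrees. Sdhd, a membrane anchor, was at 75.2, 78.6 and 84.2 scaled CPM in resting MuSCs and at 203, 183 and 252 after injury (log2 change 1.42 ± 0.16, adjusted p = 2.1e-07). In MmSCs it was at 100, 95.5 and 63.7 at rest and 131, 114 and 112 after injury (log2 change 0.46, adjusted p = 0.0208). The change in MuSCs exceeded that in MmSCs by 0.96 ± 0.22 (interaction, adjusted p = 0.0076). Sdhd also rose in CD45+ cells (0.54, adjusted p = 0.0101), and in CD31+ cells it was at 0.32 (adjusted p = 0.158). Sdhc, the other anchor, rose in CD31+ cells from 37.2, 39.3 and 38.9 to 90, 77.3 and 68.8 scaled CPM (log2 change 1.03 ± 0.17, adjusted p = 9.46e-05), in MmSCs by 0.68 and in MuSCs by 0.64. Sdhb, the iron-sulfur subunit, rose in all 4 populations by 0.36 to 0.75. Sdha, the flavoprotein subunit, was called in MmSCs alone, where the resting libraries held 425, 381 and 398 and the injured 514, 502 and 508 scaled CPM (log2 change 0.34), and whether that change differs from the other populations was tested only through the interactions with MmSCs, none of which was called for Sdha.

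**Figure D2:**
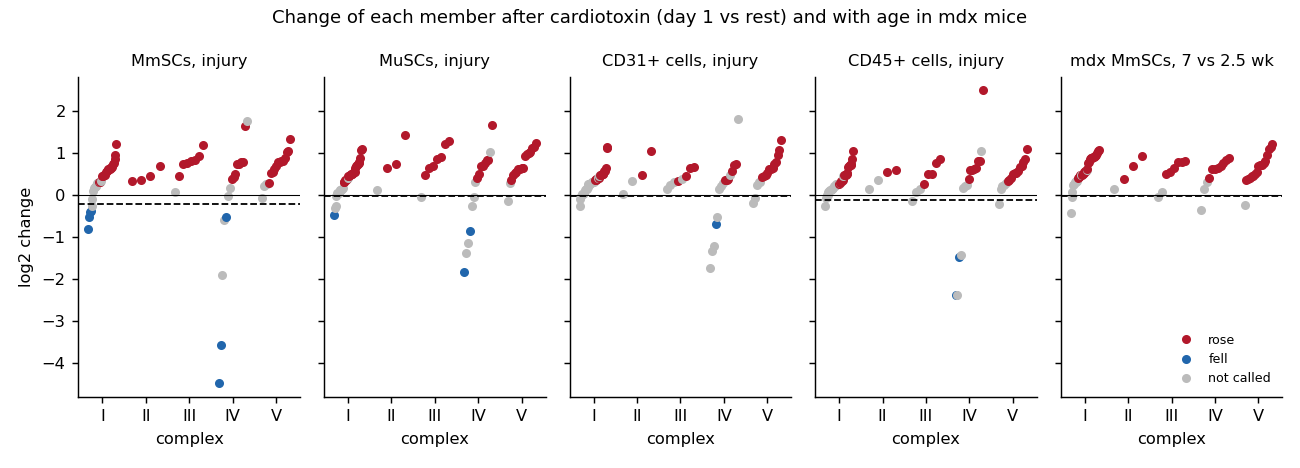
Log2 change of each of the 81 genes, sorted within each complex (I to V, x axis), after cardiotoxin in the 4 sorted populations, and from 2.5 to 7 weeks in DMDmdx MmSCs. Red points rose, blue fell and grey were not called (adjusted p under 0.05, edgeR); the dashed line is the median of all genes tested, and most points of every complex lie above it.

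A few genes fell against the majority. Cox7a2l, counted with complex IV by its symbol, was the only one of the 81 called lower in all 4 populations. It went from 212, 228 and 186 to 69.7, 67.6 and 88.9 scaled CPM in CD45+ cells (log2 change -1.47 ± 0.15, adjusted p = 1.54e-07). In MuSCs it went from 256.4, 251.2 and 275.6 to 150, 124 and 156 (-0.87 ± 0.15, adjusted p = 4.72e-05), and in CD31+ cells from 147, 153 and 130 to 105, 75.3 and 84.6 (-0.70 ± 0.15, adjusted p = 0.0011). No injured library overlapped a resting one in these populations. In MmSCs it went from 149, 155 and 113 to 98.5, 92.5 and 101 (-0.52 ± 0.15, adjusted p = 0.00667), a call that was lost without resting MmSC replicate 1 (adjusted p = 0.163) or replicate 2 (adjusted p = 0.221) and with no scaling factors (adjusted p = 0.187). The fall in CD45+ cells exceeded that in MmSCs by 0.95 ± 0.21 (interaction, adjusted p = 0.0014). Its paralogue Cox7a2, the common subunit isoform, rose in all 4 populations and by 0.81 ± 0.11 in CD45+ cells (adjusted p = 7.77e-06).

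Complex I held 3 falling accessory subunits in MmSCs besides Ndufa6. Ndufv3 went from 174, 161 and 158 to 90.1, 97.4 and 95.7 scaled CPM (log2 change -0.80 ± 0.12, adjusted p = 6.65e-06), and it also fell in MuSCs (-0.48 ± 0.12, adjusted p = 0.00207). Ndufa1 went from 120, 109 and 91.7 to 77.5, 62.7 and 81.5 in MmSCs (-0.54 ± 0.15, adjusted p = 0.00512) but rose in CD45+ cells, the only gene of the 81 with calls in both directions. Ndufa13, also known as GRIM-19, fell by 0.42 ± 0.12 (adjusted p = 0.00544). Against the MmSC change, Ndufv3, Ndufa1 and Ndufa13 were each higher in CD31+ cells (by 0.54, 0.83 and 0.56) and in CD45+ cells (by 1.01, 1.05 and 0.57), all called as interactions. Ndufa6 was at -0.39 in MmSCs (adjusted p = 0.0451), a call lost without any one of the 6 MmSC libraries and in 4 other alternatives.

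The muscle isoforms of complex IV were near the floor in sorted cells, and Cox7a1 and Cox8b fell in MmSCs after injury. Cox7a1 had 19, 16 and 9 counts in the resting MmSC libraries and 0, 0 and 2 in the injured ones, so the resting level was 27.6 times the injured one, between 7.19 and 235 by 95% counting error (edgeR adjusted p = 0.000351). Cox8b had 23, 8 and 4 counts at rest and 0, 2 and 1 after injury, so the resting level was 14.6 times the injured one, between 4.61 and 74.3 (adjusted p = 0.00118). These intervals cover counting error only. In CD45+ cells Cox7a1 had 16, 10 and 4 counts at rest and 20, 16 and 31 after injury and was not called. Cox8b in MuSCs went from 4.72, 3.79 and 3.99 to 1.07, 1.64 and 0.795 scaled CPM (adjusted p = 0.0272), a call lost in 5 of 6 fits that left out a MuSC library. Cox6a2 had at most 16 counts in any of these sorted libraries and was called in none of the 4 populations, with 2, 2 and 1 counts in resting and 8, 5 and 9 in injured MmSCs. Muscle fibre markers moved in the same samples: their summed level was 151 to 362 CPM in resting MmSCs and 15.1 to 26.8 CPM after injury, 10 of 11 tested markers fell, and 4 to 7 of 12 were at 0 in the injured libraries against 0 of 12 at rest. In CD45+ cells, too, 10 of 11 fell, from a sum of 157 to 202 CPM to 25.8 to 47.2 CPM. The part of fibre RNA in the isoform counts was not tested.

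**Figure D3:**
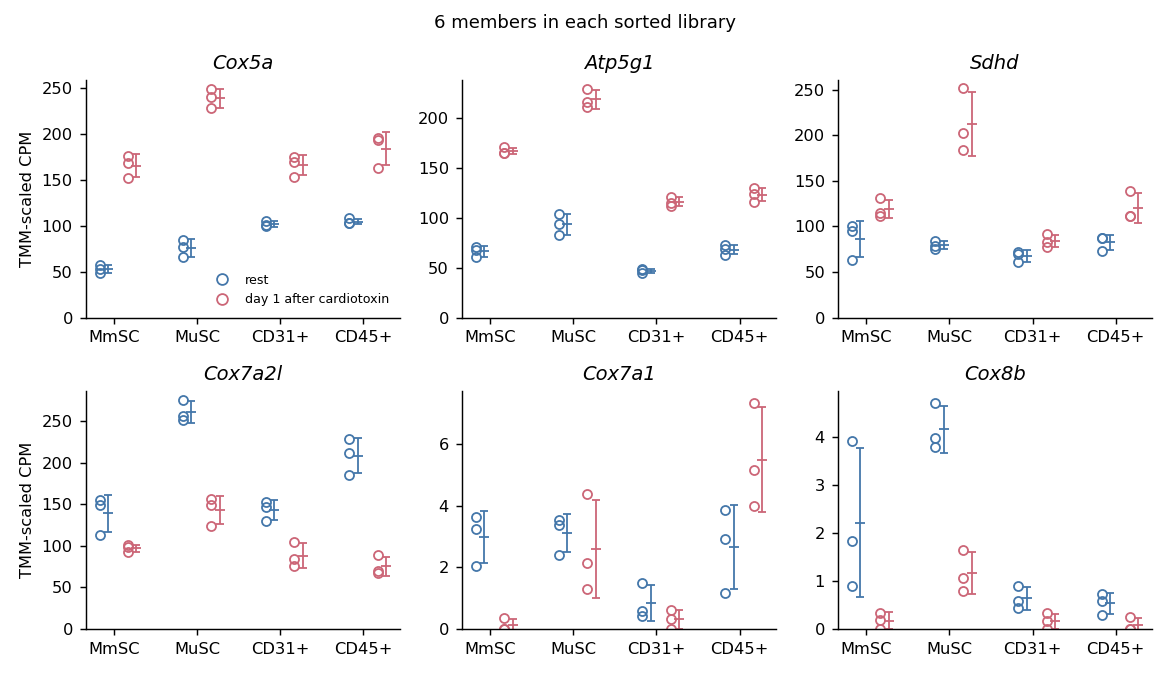
TMM-scaled CPM of 6 members in each sorted library at rest (blue) and 1 day after cardiotoxin (pink). Circles are libraries and bars are the mean ± SD (n = 3); Cox5a and Atp5g1 are higher in all injured libraries, Cox7a2l is lower, and the Cox7a1 and Cox8b axes end below 8 CPM.

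Cell composition and cell state markers moved with injury as well. The neutrophil marker sum in CD45+ cells was 887 to 3250 CPM at rest and 4230 to 6530 CPM on day 1 (4 of 6 markers rose), and the MmSC marker sum in MmSCs was 137000 to 159000 CPM at rest and 38000 to 56400 CPM after injury (6 of 10 fell). In CD31+ cells, injured replicate 1 had a leukocyte marker sum of 134 CPM against 9.43 to 10.7 CPM in the other 2 injured libraries. Without that library 30 members were called in CD31+ cells in place of 40. Of 8 pericyte and smooth muscle markers tested in MuSCs none rose and 1 fell. The part of these shifts in the changes of the 81 genes was not tested.

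Related gene groups were read in the same fits, by counts alone. Of 11 mitochondrially encoded subunit transcripts tested, 0 rose and 3 fell in MmSCs, 1 rose and 5 fell in MuSCs, and 0 rose and 4 fell in each of CD31+ and CD45+ cells. Among them mt-Co1, the catalytic core of complex IV, fell by 1.01, 0.85, 0.70 and 0.64 in that order. In MmSCs 23.6% of all genes fell, and the mitochondrially encoded share of counts was 1.27% to 1.40% at rest and 1.35% to 1.48% after injury. That share was 2.48% to 2.71% and 1.84% to 2.47% in MuSCs, 1.1% to 1.17% and 0.873% to 0.904% in CD31+ cells, and 1.48% to 1.64% and 0.841% to 1.1% in CD45+ cells. Assembly factor genes rose in 23, 23, 12 and 12 of 46 and fell in 2, 1, 0 and 5. Ndufaf4, a complex I assembly factor, rose by 1.53 in MmSCs and 2.04 in MuSCs. Mitochondrial ribosomal protein genes rose in 66, 71, 52 and 39 of 77. Cytosolic ribosomal protein genes rose in 78, 43, 78 and 3 of 85, with 18 falling in CD45+ cells. Glycolysis genes rose in 12, 13, 11 and 12 of 21 and citrate cycle genes in 14, 11, 14 and 9 of 22. The electron carrier gene Cycs (cytochrome c) rose by 2.17, 2.41, 1.39 and 1.1. Pprc1, a coactivator of mitochondrial biogenesis, rose by 1.42, 1.55, 2.7 and 0.80. It was named from a list of biogenesis regulators, whose rising and falling numbers after injury are not given here. In MmSCs the median change of the mitochondrial ribosomal list was 0.87 and that of the glycolysis list 1.30, both above the 0.49 of the respiratory chain subunits.

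The difference of each population's injury change from that of MmSCs was tested as an interaction. In MuSCs the change of 2 members was higher and of none lower (5.62% and 2.02% of all genes, 7.64% either way). In CD31+ cells 3 were higher and 6 lower (7.71% and 4.78%, 12.5% either way), and in CD45+ cells 6 were higher and 10 lower (11.5% and 13.6%, 25% either way). The members' shares were thus at or below those of all genes, except for 6 of 81 lower in CD31+ cells. With no scaling factors 1 was higher and 33 lower in MuSCs, 0 and 26 in CD31+ cells, and 2 and 53 in CD45+ cells. The all-gene medians moved down too, from 0.137, 0.161 and -0.012 to -0.308, -0.115 and -0.511. The member median minus the all-gene median went from -0.106, -0.254 and -0.144 to -0.139, -0.268 and -0.163.

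The resting populations were then compared with resting MmSCs, which serve as the control of all 3 comparisons. In MuSCs 38 members were higher and 5 lower (median log2 difference 0.29 against -0.01 over all genes, of which 17.3% were higher and 23.4% lower). CD31+ cells had 14 higher and 23 lower (median -0.05 against 0.06; 23% and 24% of all genes), and CD45+ cells 15 higher and 18 lower (0.04 against 0.04; 28.2% and 28.5%). The share of higher members in MuSCs was above that of all genes. Without scaling factors the splits were 75 higher and 1 lower in MuSCs, 42 and 5 in CD31+ cells, and 39 and 4 in CD45+ cells, with all-gene medians of 0.54, 0.39 and 0.29.

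Single genes marked the resting populations. Cox4i2, the alternative form of complex IV subunit 4, was at 8.22, 12.6 and 8.69 scaled CPM in resting CD31+ cells and at 0.683, 1.60 and 0.452 in resting MmSCs (log2 difference 3.42 ± 0.56, adjusted p = 2.37e-05). After injury the CD31+ libraries held 6.28, 7.12 and 6.95 (log2 change -0.53, adjusted p = 0.453). Even so, Cox4i2 made up 1.81% ± 0.433 (SD, n = 3) of the Cox4 transcript per kb in resting CD31+ cells. In CD45+ cells Cox4i2 had 0, 1 and 1 counts at rest and 5, 4 and 5 after injury, which is 6.36 times as many after scaling to library size, between 1.46 and 57.7 by 95% counting error. Ndufa8, an accessory subunit of complex I, was at 290 ± 10 in resting CD31+ cells and 97.3 ± 2.86 in resting MmSCs (log2 difference 1.58 ± 0.10, adjusted p = 1.13e-11). It did not move further with injury in CD31+ cells, where the injured libraries held 287, 294 and 306 scaled CPM, and its change was 0.64 ± 0.14 lower than in MmSCs (interaction, adjusted p = 0.00351). In MuSCs, Ndufs8, an iron-sulfur subunit of complex I, was at 235 ± 19.9 against 107 ± 14.5 in MmSCs (log2 difference 1.14 ± 0.12, adjusted p = 6.57e-08), while Ndufs4 was lower by 0.94 ± 0.13 (adjusted p = 3.15e-06).

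Over the 28 group means, the genes whose level followed Cox4i2 most closely (Pearson r of log2 of CPM plus 1) were Gm45457 (0.955), Sox18 (0.95), Magix (0.947), Nos3 (0.942) and Ablim3 (0.942). For Cox8b they were Myot (0.988), Actc1 (0.988), Sln (0.985), Klhl34 (0.984) and Apobec2 (0.984). Group means of one experiment share controls and library preparation, so these values are descriptions. Cox6a2, Cox7a1 and Cox8b together were at 169 to 1056 CPM in whole muscle libraries and at most 13.2 CPM in sorted ones. Correlations without the whole muscle groups or without the CD31+ groups were not computed.

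In whole muscle the muscle isoforms made up far more of their subunits than in sorted cells. Cox6a2 made up 83.2% ± 4.21 (SD, n = 3) of the Cox6a transcript per kb in IgG muscle, Cox8b 79.5% ± 4.88 of Cox8a plus Cox8b, and Cox7a1 48.4% ± 1.83 of Cox7a1 plus Cox7a2. In resting MmSCs the corresponding shares were 0.121% ± 0.0455, 1.42% ± 0.958 and 3.12% ± 0.931. In resting MuSCs they were 0.803% ± 0.122, 1.71% ± 0.362 and 2.62% ± 0.534.

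The aCxcl5 comparison asks what blocking this neutrophil chemoattractant does to regenerating muscle. None of 80 members tested was called by edgeR or by DESeq2, while 0.03% of all 13346 genes rose and 0% fell. At an unadjusted p under 0.05 there were 3: Ndufs7, Sdha and Uqcrc1. The median log2 change was -0.45 against 0.00 over all genes, and 79 of 80 lay below 0, the exception being Cox7a2l at 0.11. This median rested on 1 library, as it was -0.14 without aCxcl5 replicate 2. With no filter on low counts, 14 members were called lower. The all-gene shares above belong to the filtered fit, and those of the unfiltered fit are not given here. The unfiltered fit was not repeated without aCxcl5 replicate 2, so whether these calls rest on that library was not tested. Sdha was at 1723, 1684 and 1638 scaled CPM with IgG and 1479, 1451 and 1376 with aCxcl5 (log2 change -0.23 ± 0.10, adjusted p = 0.844). Its libraries do not overlap, but the change was not called. Immune markers moved with the groups: the leukocyte sum was 483 to 781 CPM with aCxcl5 and 370 to 461 CPM with IgG, and the macrophage sum was 930 to 1197 CPM and 676 to 920 CPM. None of the 6 leukocyte and 6 macrophage markers tested was called, and their part in the members' values was not tested.

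Replicate 2 of aCxcl5 was low for particular members. Cox6a2 was at 543, 518 and 370 scaled CPM in the IgG libraries and 464, 104 and 354 in the aCxcl5 libraries. Cox7a1 was at 261, 224 and 179 against 204, 25.7 and 173, and Cox8b at 317, 286 and 194 against 248, 38.9 and 188. Cox6a1, the non-muscle isoform, showed the same pattern at 74.9, 74.5 and 85.7 against 74.9, 23.9 and 74.7. Replicates 1 and 3 of aCxcl5 lay inside or near the IgG range for all 4 genes. Transcript length moved with this: over 79 members, the log2 ratio of this library to the mean of the other 5 had a Spearman rho of 0.676 with transcript length. The 14 members with the shortest transcripts had a median ratio of -2.37 and the 18 with the longest -0.08. In the other 5 libraries rho lay between -0.539 and -0.273. The mean that each of those was divided by includes aCxcl5 replicate 2, which by itself pushes their rho below 0. The fibre marker sum of this library was within the range of 142000 to 166000 CPM spanned by all 6. Uqcrc1, with its annotated 533 bases, was at -0.08 in this library. The part of transcript length in these values was not tested.

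**Figure D4:**
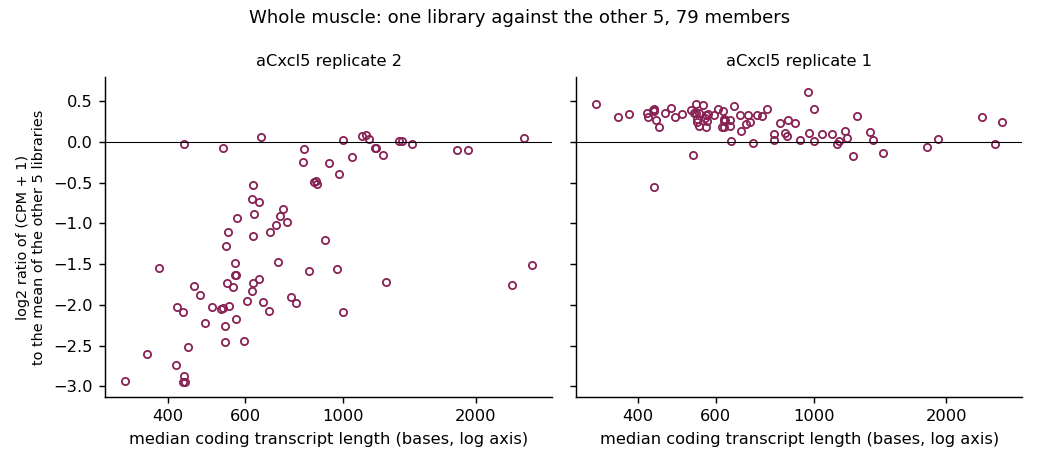
Log2 ratio of each of 79 members in one whole muscle library to the mean of the other 5 (y axis) against transcript length in bases (x axis, log scale), for aCxcl5 replicate 2 (left) and replicate 1 (right). Points are genes. In replicate 2 the shorter transcripts lie lowest, with a median of -2.37 for the 14 shortest. The mean used for replicate 1 includes replicate 2.

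In DMDmdx mice the question was how MmSC transcripts change with age during the disease. Between 2.5 and 7 weeks 58 of 76 members tested rose and none fell, with a median log2 change of 0.59 against -0.02 over all 13160 genes, of which 21.9% rose and 22.7% fell. The rises covered 25 of 36 genes of complex I, 3 of 4 of complex II, 6 of 8 of complex III, 8 of 11 of complex IV and 16 of 17 of complex V. Each fit that left out 1 library called between 46 and 65. Atp5g1 was at 21.8, 30.1 and 25 scaled CPM at 2.5 weeks, 59.0, 52.8 and 51.0 at 7 weeks, and 37.7 and 37.7 at 12.5 weeks. The 3 ages did not overlap, and the change from 2.5 to 7 weeks was 1.08 ± 0.15 (adjusted p = 6.1e-05). Ndufb6 was at 23.6, 39.0 and 23.8 at 2.5 weeks, 60.9, 59.7 and 59.1 at 7 weeks, and 51.6 and 44.6 at 12.5 weeks (first change 1.06 ± 0.18, adjusted p = 0.000325). Atp5k, a small dimer-associated subunit of ATP synthase, was at 5.89, 13.3 and 5.12, then 20.2, 19.2 and 17.2, then 14.0 and 10.8 (first change 1.22 ± 0.30, adjusted p = 0.00468). Here the 12.5-week values fell between or inside the younger groups. Sdhc rose from 15.3, 20.6 and 19.1 to 40.1, 34.4 and 30.1 (0.93) and stood at 23.1 and 20.4 at 12.5 weeks.

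From 7 to 12.5 weeks the median was -0.34 against 0.01 over all genes, and 3 members fell and none rose (3.52% of all genes rose and 2.39% fell). They were Cox7c (-0.98 ± 0.27, adjusted p = 0.0456), Ndufc2 (-0.72 ± 0.19, adjusted p = 0.0397) and Ndufa4 (-0.68 ± 0.16, adjusted p = 0.0189). Leaving out any 1 library left at most 1 call, while a fit of these 2 ages alone called 30. The all-gene shares above belong to the fit of all ages. Those of the fit of these 2 ages are not given here, so its 30 calls cannot be set against them. Ndufa4 was at 164, 162 and 128 scaled CPM at 7 weeks and 97.3 and 91.9 at 12.5 weeks, against 76.4, 95.7 and 77.7 at 2.5 weeks. Between 2.5 and 12.5 weeks 7 of 76 members rose (9.21%) and none fell, below the 13.9% and 12.4% of all genes. Among the 7 were Ndufb6 (0.75, adjusted p = 0.0146), Ndufs8, Atp5g1 and Uqcrc1. That number was 0 without 2.5-week replicate 3 and 31 without 2.5-week replicate 2. Unscaled, 3 rose and 2 fell, and with upper-quartile factors 6 rose and 1 fell. These 3 comparisons share groups, so their values are given side by side only.

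Among related lists at 7 against 2.5 weeks, mitochondrial ribosomal protein genes rose in 52 of 77, mitochondrially encoded subunits in 6 of 9, glycolysis genes in 11 of 20 and cytosolic ribosomal protein genes in 23 of 84. Of 13 regulators of mitochondrial biogenesis 2 rose and 5 fell, with Yy1 at -1.16 and Pprc1 at -0.54. Of the 53 genes that rose in MmSCs after cardiotoxin, 46 (86.8%) also rose from 2.5 to 7 weeks, which is 79.3% of the mdx list. For comparison, 76.3% of all members tested rose from 2.5 to 7 weeks, and 65.4% rose in MmSCs after cardiotoxin. The same overlap over all genes was not counted. Markers moved as well: of 10 MmSC markers 2 rose and 4 fell, and of 4 MuSC markers tested 3 rose and none fell. Their part in the change with age was not tested.

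Cytokine injection was used to ask which signals act on MmSCs without injury. After 2 h of the 4-cytokine mix 10 rose and 5 fell of 77 tested (20.5% and 18% of all 15965 genes; median log2 change 0.08 against -0.06). Both counts were below the all-gene shares. Complex I had 1 rising and 4 falling of 36 (11.1% fell), complex II no call among 4, complex III 3 rising of 8, complex IV 3 rising and 1 falling of 12, and complex V 3 rising of 17. The difference between complexes was not tested. The count also depended on scaling: upper-quartile factors gave 4 rising and 15 falling, and no scaling factors gave 0 and 40, with the all-gene median moving from -0.06 to -0.26 and -0.58. Directions at 2 h are given relative to the TMM scaling.

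Ndufa6, an accessory subunit of complex I, was at 44.8 and 47.5 scaled CPM in PBS, 28.2 and 18.2 at 2 h, 17.7 in the single 4 h library, and 30.0 and 32.3 at 8 h. All mix libraries lay below both PBS libraries, with log2 changes of -0.99 ± 0.22 (adjusted p = 0.000941), -1.38 ± 0.28 (adjusted p = 0.000467) and -0.57 ± 0.21 (adjusted p = 0.048). Ndufv3 was at 74.9 and 64.2 in PBS and 44.4 and 30.7 at 2 h (-0.89 ± 0.17, adjusted p = 0.000316). Ndufb3, Cox7a2l and Ndufa11 fell at 2 h by 0.60, 0.44 and 0.42. Cox5a went the other way, at 28.7 and 26.6 in PBS, 40 and 49.8 at 2 h, 63.7 at 4 h, and 49.3 and 42.4 at 8 h (log2 changes 0.70, 1.20 and 0.73, all called). Ndufa12, Uqcrfs1, Atp5md, Atp5b and Atp5a1 rose at 2 h by 0.50 to 0.58, and Cox7a2, Cox5b, Uqcrq and Uqcrc1 by 0.34 to 0.46. Unscaled, Uqcrq was at -0.13 and Atp5b at -0.01 at 2 h.

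The single 4 h library was assumed to vary like the other groups, and there 11 rose and 6 fell (19.6% and 16.8% of all genes). The 6 that fell were 16.7% of the 36 complex I genes, about the all-gene share. At 8 h 19 rose and 2 fell (15.6% and 12.9% of all genes; median 0.16 against 0.08), led by Uqcrq at 0.82 ± 0.15 (adjusted p = 0.000198), with Ndufa13 and Ndufa6 falling. Leaving out 1 of the PBS or 8 h libraries reduced these 21 calls to between 6 and 10. The 2 h count of 15 was 7 without PBS replicate 1 and 8 without replicate 2. Against the 2 h libraries, the 8 h libraries had 11 of 77 members higher (14.3%) and 3 lower (3.9%). Over all genes, 16.6% were higher and 18.7% lower (35.3% either way), so both member shares were below these. Of the 11 higher members, 7 were in complex I, which is 19.4% of its 36 genes and near the all-gene share. The higher ones included Ndufv2, Ndufa8 and Ndufa4 by 0.61 to 0.62 and Sdhd by 0.53. These splits moved with scaling. Upper-quartile factors gave 6 rising and 14 falling at 4 h and 11 and 3 at 8 h, RLE factors 9 and 8 at 4 h, and no scaling factors 4 and 15 at 4 h, 13 and 3 at 8 h, and 57 and 0 for 8 h against 2 h.

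The single cytokines are shown beside the mix in the plot of medians for each complex. Differences between treatments were not tested. With Il-1b 36 rose and 1 fell (19.5% and 13.7% of all genes, 33.1% either way; median 0.41 against -0.01), in 7 of 8 genes of complex III, 8 of 12 of complex IV, 11 of 17 of complex V and 10 of 36 of complex I, and the gene that fell was Ndufv3 (-0.53 ± 0.17, adjusted p = 0.0202). Osm gave 32 rising and 2 falling (18.9% and 15.5%; median 0.35 against -0.05). Without PBS replicate 2, the calls fell from 37 to 13 for Il-1b and from 34 to 15 for Osm, and without PBS replicate 1 they were 23 and 19. After Osm the leading gene was Cox5a, at 71.7 and 59.3 scaled CPM against 28.7 and 26.6 in PBS (log2 change 1.24 ± 0.17, adjusted p = 5.98e-06). Ndufa6 (-0.61) and Ndufv3 (-0.48) fell after Osm. TNFa gave 5 rising (6.49% of 77) and 0 falling, below the all-gene shares of 10.2% and 4.62%. The 5 were Atp5md, Uqcrb, Atp5mpl, Ndufs4 and Atp5pb. Il-17A gave 13 rising and 0 falling (2.84% and 2.11%, 4.95% either way; median 0.37 against -0.02), and 75 of 77 lay above 0. With either PBS library left out none was called for Il-17A, and TNFa had 1 call without PBS replicate 1 and 0 without replicate 2. Atp5md, a small ATP synthase subunit, was called after each single cytokine: PBS held 14.0 and 11.2 scaled CPM, Il-1b 28.5 and 24.6, TNFa 18.8 and 25.9, Osm 27.7 and 29.1, and Il-17A 24.8 and 21.2. None of these 8 cytokine libraries overlapped PBS.

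These comparisons share the same 2 PBS libraries. In an alternative chosen after seeing the data, PBS was replaced by the Il-17A libraries. Then Il-1b had 4 rising and 3 falling, Osm 2 and 2, and the mix 0 and 34 at 2 h and 4 and 22 at 8 h. TNFa had 1 call. All-gene shares and medians of this alternative are not given here, so its counts cannot be read as particular to the members. When no scaling factors were used Il-1b had 6 rising and 2 falling, TNFa 0 and 1, and Osm 12 and 3.

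**Figure D5:**
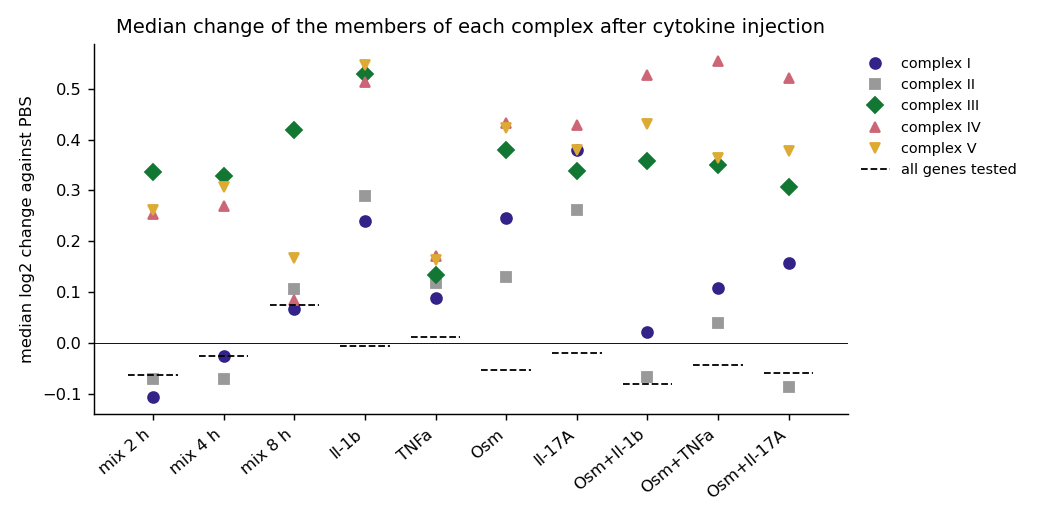
Median log2 change against PBS of the genes of each complex after cytokine injection (x axis: treatment, 2 h unless stated). Symbols are complexes and dashed lines are the median of all genes tested; after the mix at 2 h complex I lies below the all-gene line (-0.11) and complex III above it (0.34).

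Osm combined with Il-1b gave 26 rising and 3 falling (21.7% and 20.2% of all genes), with TNFa 23 and 2 (20.5% and 16.6%, 37% either way), and with Il-17A 23 and 2 (19.4% and 16.2%). Atp5md, Cox5a, Uqcrb and Atp5pb were among the highest in all 3 pairs, and Ndufa6 and Ndufv3 fell in all 3. With Osm and Il-1b, Atp5md was at 31.6 and 32.9 scaled CPM (log2 change 1.36 ± 0.22, adjusted p = 4.69e-05) and Ndufa6 at 20.1 and 27.6 (-0.95 ± 0.22, adjusted p = 0.00144). No scaling factors gave 4 rising and 24 falling for the first pair, 5 and 8 for the second and 5 and 7 for the third. Upper-quartile factors gave 14 and 6 for the first and 12 and 4 for the third. Mitochondrially encoded subunits were called higher in 8 of 11 after Il-1b, 7 after TNFa, 7 after Osm and 2 after Il-17A, and in 0 after 2 h of the mix. Cytosolic ribosomal protein genes rose in 78 of 85 after 2 h of the mix. Of the genes listed under mitochondrial biogenesis, Gabpb1, Pprc1, Twnk and Tfam rose by 2.81, 2.88, 1.88 and 1.12. They were named by smallest p, and how many of that list rose or fell after the mix is not given here.

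Thy1.1+ and Thy1.1- MmSCs of Il6RD mice were compared to ask what distinguishes the Il6-expressing cells 12 h after cardiotoxin. No member of 76 was called by edgeR or DESeq2, as was the case for all 11975 genes with edgeR (0%). The median was 0.19 against -0.02 over all genes and 67 of 76 lay above 0. At an unadjusted p under 0.05 there were 3, among them Atp5md (0.53) and Ndufa12 (0.41). Samples with the same number deviated together, so the replicate number was also fitted as a block, and then Atp5b (0.33 ± 0.09, adjusted p = 0.0399) and Atp5a1 (0.31 ± 0.09, adjusted p = 0.05 after rounding) were called higher. Atp5b was at 1583, 1529 and 1194 scaled CPM in Thy1.1+ libraries 1 to 3 and 1171, 1234 and 1014 in the Thy1.1- libraries of the same numbers, so the Thy1.1+ library was the higher of each pair. The MmSC marker sum was lower in the Thy1.1+ library of each pair, at 82860, 80020 and 111200 CPM against 93630, 103600 and 130200 CPM. None of the 10 markers was called, and their part in the Atp5b difference was not tested. In a block fit without both number 3 libraries, chosen after seeing the data, 8 were called higher, among them Uqcrc1 (0.40 ± 0.10, adjusted p = 0.0274) and Atp5b (0.38 ± 0.09, adjusted p = 0.0217). The 0% of all genes above belongs to the fit without a block. All-gene shares of both block fits are not given here, so these calls cannot be read as particular to the members.

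Il1b-KO and Il1b-WT MmSCs were compared to ask whether Il1b shapes the injury response. No member of 76 was called by edgeR or DESeq2 (1.12% of all 12102 genes rose and 0.0909% fell), and the median was -0.06 against 0.00. One gene, Ndufb11, had an unadjusted p under 0.05. It was at 46.1, 50.6 and 54.0 scaled CPM in Il1b-KO and 55.7 and 70.4 in Il1b-WT (-0.33 ± 0.13, adjusted p = 0.36). The members' share of counts was 0.964% to 1.01% in Il1b-KO and 1.00% to 1.04% in Il1b-WT, and the 2 ranges overlapped.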

How the data were processed

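Raw counts for every gene and library came in a single deposited table. STAR 2.7.3a, featureCounts and mm10 (GRCm38) are named, per the submitters' processing notes. Which annotation was used, whether strand was counted and how multiply matching reads were treated is not given in the sources used here. Genes with close copies may therefore share reads. The deposited counts held 0 unused columns and 0 rows that name no gene. Replicate libraries differed beyond counting noise (chi-square per degree of freedom 4.228 to 55.97), so none was merged.

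Each of 6 experiments was fitted over all its genes with edgeR 4.0.16 (R 4.3.3): filterByExpr with a minimum count of 10, TMM factors (0.782 to 1.29), 1 mean per group and the quasi-likelihood test. P-values were adjusted by Benjamini-Hochberg over all genes tested, with calls at an adjusted p under 0.05. The fit was also run on simulated data with few changed genes and no other group differences, and its outcome is not given here. That run does not cover how the calls depend on scaling. DESeq2 1.42.0, other scalings, no filter, a replicate block, fits of the compared groups alone and leaving out each library were alternatives. Scaled CPM use the TMM-scaled library size, and each SE was derived from the log2 change and the F statistic of its test. Fitted changes of genes near 0 counts depend on the prior count.

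Replicate numbers paired the Thy1.1+ and Thy1.1- samples, whose deviations from the group means had correlations of 0.386, 0.425 and 0.655. The members, the lists and the alternatives were chosen with earlier results of these data known. Genes named were, in each comparison, up to 10 highest and 10 lowest called members and any called against the majority. The Sdh genes and the isoform groups of complexes IV and V could be named anywhere, with up to 4 genes of another list by smallest p, and the 5 genes most like Cox4i2 and Cox8b. Members printed outside that rule, such as Ndufb11, Ndufs7 and those called in no injury comparison, were chosen after their values were seen.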

Additional observations from a re-analysis of the deposited data

Results flagged for a closer look

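The injury response of some members differed between populations by the interaction test of edgeR. The number of members called was 2 for MuSCs against MmSCs (7.64% of all genes), 9 for CD31+ cells against MmSCs (12.5%) and 16 for CD45+ cells against MmSCs (25%). For the first pair, Sdhd was higher by 0.963 on the log2 scale and Cox7a1 by 4.204. For CD31+ cells, Ndufa1, Ndufa13 and Ndufv3 were higher by 0.829, 0.561 and 0.537, and Cox5a and Ndufa8 differed by -0.946 and -0.637. For CD45+ cells, Cox7a1, Cox4i2, Ndufa1 and Ndufv3 were higher by 5.499, 3.094, 1.046 and 1.006, and Atp5g2, Cox7a2l and Cox5a differed by -1.243, -0.952 and -0.831. The values of Cox7a1 and Cox4i2 rest on groups with 0 to 2 counts per library, and their size depends on the prior count of the fit. With no scaling factors, the splits of members higher and lower were 1 and 33 for MuSCs, 0 and 26 for CD31+ cells and 2 and 53 for CD45+ cells. The all-gene medians were then -0.308, -0.115 and -0.511. RLE factors gave 7 and 6 for CD45+ cells, upper-quartile factors 1 and 7 for CD31+ cells, and DESeq2 5 and 1 for MuSCs.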

How the results depend on the processing

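The number of members called kept within 1.5 times of the reported one in 27 of 27 comparisons with RLE factors, 23 with upper-quartile factors, 14 with no scaling factors, 8 with no filter on low counts, 25 with the replicate block and 24 with DESeq2. Outside that range, upper-quartile factors gave 19 for Il-1b, 20 for Osm, 13 for Osm with TNFa and 16 for Osm with Il-17A. No scaling factors gave 40 for the mix at 2 h, 57 for 8 h against 2 h, 8 for Il-1b, 1 for TNFa, 15 for Osm, 13 for Osm with TNFa, 12 for Osm with Il-17A, 28 for injury in CD45+ cells, 34, 26 and 55 for the interactions of MuSCs, CD31+ and CD45+ cells with MmSCs, 76 for resting MuSCs and 12 for mdx 12.5 against 7 weeks. No filter gave 6, 7 and 9 for the mix at 2, 4 and 8 h, 7 for 8 h against 2 h, 19 for Il-1b, 2 for TNFa, 19 for Osm, 8 for Il-17A, 17, 16 and 16 for Osm with Il-1b, TNFa and Il-17A, 1, 1 and 7 for the 3 interactions, 28, 18 and 14 for resting MuSCs, CD31+ and CD45+ cells, 14 for aCxcl5 and 9 for mdx 12.5 against 7 weeks. DESeq2 gave 6 and 17 for the interactions of MuSCs and CD31+ cells and 5 for mdx 12.5 against 7 weeks. Fits of the compared groups alone gave 22 for Il-1b, 13 and 10 for the interactions of MuSCs and CD45+ cells, 30 for mdx 12.5 against 7 weeks and 2 for 12.5 against 2.5 weeks. The replicate block gave 2 for Thy1.1 and 4 for mdx 12.5 against 2.5 weeks. Only the Thy1.1 numbers pair samples: correlations were 0.045, -0.019 and 0.042 for aCxcl5 and IgG, and 0.019 and -0.112 for Il1b. With PBS replaced by Il-17A, an alternative chosen after seeing the data, the numbers were 34 for the mix at 2 h, 7 for Il-1b, 1 for TNFa and 4 for Osm, and without both number 3 libraries the block fit of Thy1.1 gave 8. All-gene shares were not set beside the counts of these alternative fits.

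Leaving out each library gave 7 to 13 for the mix at 2 h (lowest without PBS replicate 1), 9 to 11 at 4 h, 6 to 10 at 8 h, 6 to 12 for 8 h against 2 h, 13 to 30 for Il-1b, 0 to 4 for TNFa, 15 to 21 for Osm, 17 to 23, 13 to 19 and 10 to 18 for Osm with Il-1b, TNFa and Il-17A (each lowest without PBS replicate 2), 0 to 2 for Il-17A, 1 to 9 for the MuSC interaction, 0 to 31 for mdx 12.5 against 2.5 weeks and 0 to 1 for 12.5 against 7 weeks. Leaving out the only 4 h library gives no value. Signs turned in 6 cases among named genes: with no scaling factors Uqcrq (-0.127) and Atp5b (-0.014) at 2 h and Cox4i1 (0.242) after MmSC injury, and with Il-17A in place of PBS Atp5md at 8 h (-0.224) and after TNFa (-0.043) and Uqcrb after TNFa (-0.02). The cause of these shifts was not tested.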
